A study of Mus musculus with 15 samples.

Results

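Heat shock genes were compared among 5 groups of mouse neural progenitor cells in which LINE-1 retrotransposons had been targeted by short hairpin RNAs (shRNAs). The set holds 10 named genes out of 34989 with a transcript in the deposited count table. They are Cryab, Hspb1, Hspb6, Hspb8, Hspa1a, Hspa1b, Dnajb1, Hsph1, Hsf1 and Bag3, and for each the counts of its transcripts were summed. All 10 were among the 15147 genes that passed the filter on low counts. Cryab was selected on its measured change in shLINE_Orf1 and shLINE_Orf2 against shControl, and the other 9 are named with it as genes of the heat shock response. The levels of Cryab in comparisons that use those libraries are therefore given as a description, with no test.

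Cells answer heat and other protein-damaging stress with the heat shock response, in which the transcription factor HSF1 binds heat shock elements in promoters and raises the transcription of chaperones. Small heat shock proteins such as alpha B-crystallin, the product of Cryab, hold unfolded proteins without using ATP, and HSP70 proteins refold them in ATP-driven cycles with J-domain proteins and nucleotide exchange factors. In the brain Cryab is best known from astrocytes and oligodendrocytes.

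The cells were wild type, were kept with FGF2, EGF and heparin, and received plasmids carrying an shRNA and EGFP. GFP-positive cells were sorted 3 days later, RNA was taken with TRIZOL, and libraries were made with a SMART-seq2-type method, which copies full-length mRNA. The groups were shLINE_Orf1, shLINE_Orf2, shLINE_MdV_I, shLINE_Orf1+LINE-1 (the Orf1 shRNA with a full-length LINE-1) and shControl, with 3 libraries each. The series describes shRNAs against young and old LINE-1 and places the full-length element with the shRNA against young LINE-1, but the labels do not say which kind the Orf2 and MdV_I shRNAs target, and LINE-1 RNA itself was not analysed here.

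Libraries held between 39209073 and 51075910 counts in genes. The shLINE_Orf1 replicate 1 and shControl replicate 2 libraries stood apart from their groups in their gene counts. Chi-square per degree of freedom was 245 and 182 for pairs with shLINE_Orf1 replicate 1, and 26.4 for the other pair of that group. It was 137 and 90.7 for pairs with shControl replicate 2, and 42.9 for the other shControl pair. Mitochondrial mRNAs took 3.61% and 2.02% of the counts of these 2 libraries, against 1.36% to 1.97% elsewhere. Values that moved most without them are also given without them. All 6 neural progenitor markers passed the filter, with a summed level of 5090 to 9250 CPM (read counts scaled to a common library size). The microglial markers summed to at most 2.31 CPM, with Aif1 and C1qa at 0 in every library. The muscle markers, of a tissue rich in Cryab, summed to at most 2.79 CPM. Astrocyte markers were abundant in every library, with sums of 3150 to 4460 CPM. So were oligodendrocyte lineage markers, with sums of 2200 to 3620 CPM. In such bulk samples, fewer cells of a type and less RNA per cell cannot be told apart.

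Heat shock elements are built from GAA units in alternating orientation, and a pair of units is only part of an element. Promoters were searched for GAANNTTC and TTCNNGAA, each of which reads the same on both strands and which can overlap in longer elements. The RefSeq promoter table (GRCm38.p6, from 250 bases before to 50 after a gene's start) held 8 of the 10 genes. Cryab and Hsf1 were not in it and were not searched. At least 1 match was found for 7 of these, Hspb1, Hspb6, Hspb8, Hspa1a, Hspa1b, Hsph1 and Bag3, and none in the windows of Dnajb1. Hspb6 had a match in only 1 of its windows, and the matches of Hspb8 and Bag3 lay after the start. Of all 32851 promoters in that table, 7.86% held GAANNTTC, 8.52% held TTCNNGAA and 15.1% held either. These shares are per promoter, while some of the genes had more than 1. The 4 windows of 40 bases printed here, with the match in capitals, show the paired matches of Hspb1 and the shared one of Hspa1a and Hspa1b. The Hspb1 windows lie at chr5:135887786-135887825 and chr5:135887806-135887845 on the plus strand. Those of Hspa1b and Hspa1a lie at chr17:34959319-34959358 and chr17:34972237-34972276 on the minus strand.
Hspb1, 110 bases before the start: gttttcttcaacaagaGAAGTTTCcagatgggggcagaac
Hspb1, 90 bases before the start: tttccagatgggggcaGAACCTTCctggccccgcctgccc
Hspa1b, 97 bases before the start: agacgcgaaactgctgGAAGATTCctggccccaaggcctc
Hspa1a, 97 bases before the start: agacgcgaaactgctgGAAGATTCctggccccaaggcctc
The Hspa1a and Hspa1b promoters were identical at 296 of 300 positions. These matches are letters in a window and do not show that the factor was bound.

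Cryab (ENSMUSG00000032060.10, chr9:50751325-50756636, plus strand, GRCm38) was higher in all 12 shLINE libraries than in any shControl library. It had 69.9, 58.3 and 53.9 CPM in shLINE_Orf1, 36.4, 38.2 and 40.6 CPM in shLINE_Orf2, 30.6, 28.9 and 35.2 CPM in shLINE_MdV_I, 54.4, 57.6 and 55.8 CPM in shLINE_Orf1+LINE-1, and 18.3, 20.5 and 20.3 CPM in shControl. The shLINE_Orf1 and shLINE_Orf1+LINE-1 libraries overlapped at the top, and the shLINE_Orf2, shLINE_MdV_I and shControl libraries followed below them in that order without overlap. The group means were 60.7 ± 8.3, 38.4 ± 2.1, 31.6 ± 3.3, 55.9 ± 1.6 and, in shControl, 19.7 ± 1.2 CPM (SD, n = 3 each).

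**Figure D1:**
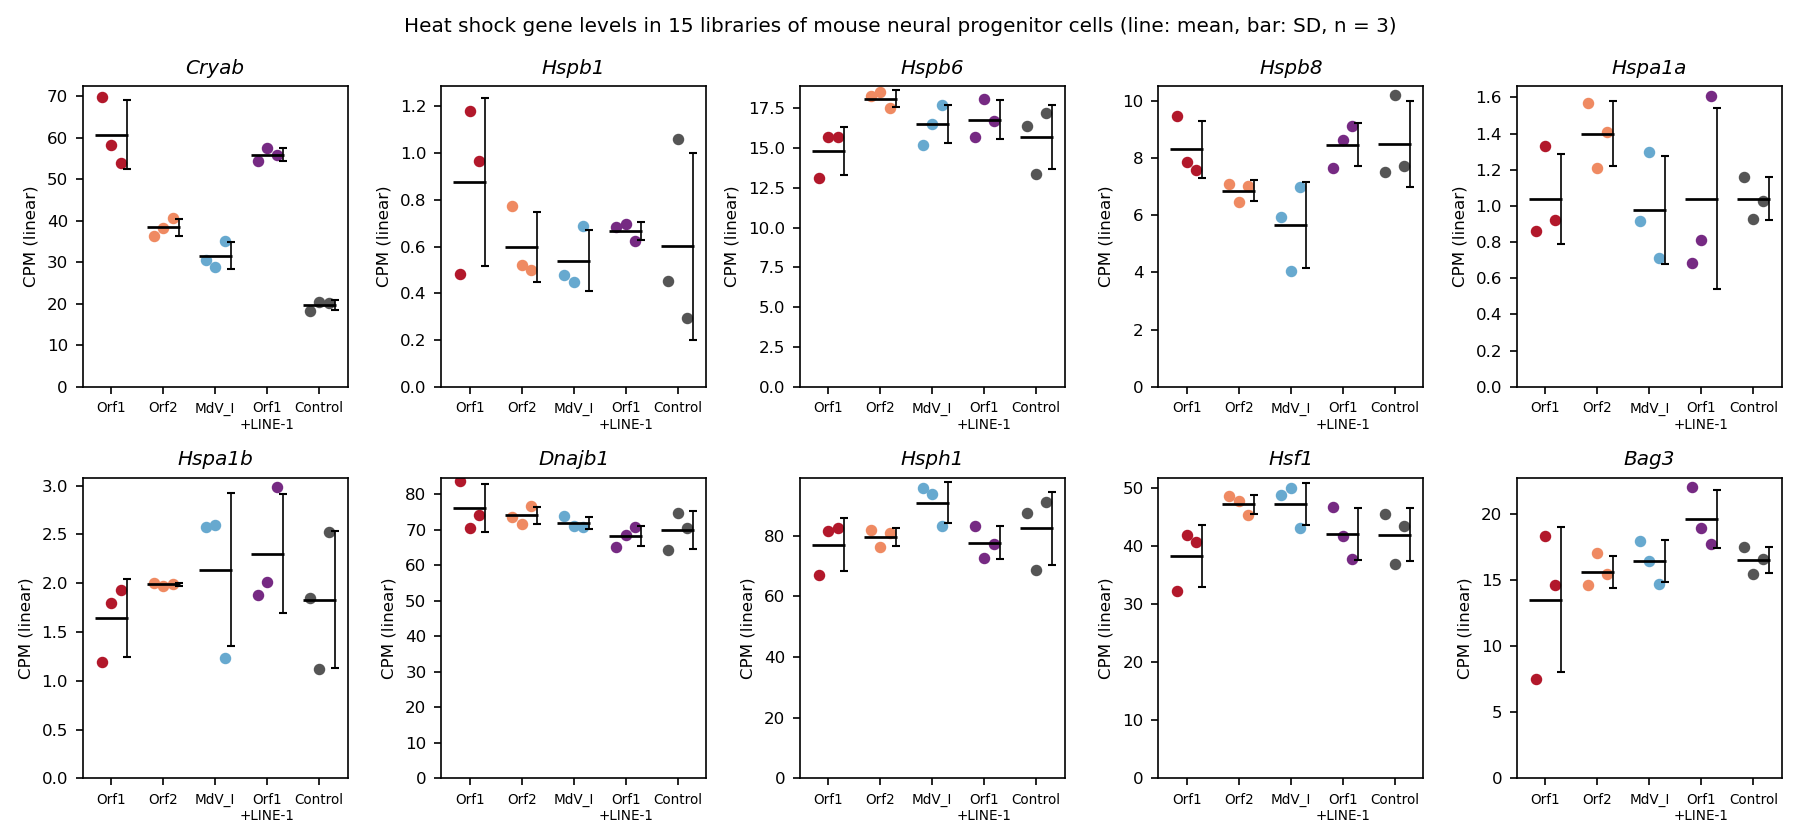
Level of each of the 10 heat shock genes in CPM (vertical axes, linear, from 0) in every library, by group from left to right, with the group mean as a line and the SD as a bar (n = 3). Cryab spans 18.3 to 69.9 CPM, with shControl below all shLINE libraries and an overlap of shLINE_Orf1 and shLINE_Orf1+LINE-1 at the top. For Dnajb1, Hsph1 and the low-count genes Hspb1, Hspa1a and Hspa1b, every shLINE group overlaps shControl, except shLINE_Orf2 for Hspa1a.

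On the log2 scale, Cryab differed from shControl by 1.62 ± 0.11 in shLINE_Orf1, 0.96 ± 0.11 in shLINE_Orf2, 0.68 ± 0.11 in shLINE_MdV_I and 1.51 ± 0.11 in shLINE_Orf1+LINE-1 (fitted log2 fold change ± SE). These 4 values share the same 3 shControl libraries. Without the 2 libraries that stood apart they were 1.53, 0.99, 0.71 and 1.54. Between shLINE_Orf1+LINE-1 and shLINE_Orf1 the log2 fold change of Cryab was -0.12 ± 0.11, and it was 0.01 without those 2 libraries. Between shLINE_Orf2 and shLINE_Orf1 it was -0.66 ± 0.11. In shLINE_Orf1 against shControl, 8 of 10 astrocyte markers had a fold change above 0 (median log2 fold change 0.29). Of 9 tested oligodendrocyte lineage markers, 3 did (median -0.15). None of either list had an adjusted p under 0.05 by edgeR, where 0.178% of all genes did. The part of these cell types in the Cryab values was not tested.

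One comparison contrasts 2 groups that hold none of the libraries that chose Cryab. All 15 libraries were in the fit that estimated its spread. In shLINE_Orf1+LINE-1 against shLINE_MdV_I, Cryab was higher by a log2 fold change of 0.82 (SE 0.11, 95% interval 0.59 to 1.06, adjusted p = 0.00324 by edgeR's quasi-likelihood test over all genes). The means were 55.9 ± 1.6 CPM in shLINE_Orf1+LINE-1 and 31.6 ± 3.3 CPM in shLINE_MdV_I, a 1.77-fold difference, and all 3 libraries of shLINE_Orf1+LINE-1 lay above all 3 of shLINE_MdV_I. Cryab was the only one of the 10 genes that edgeR called, at an adjusted p under 0.05, in a comparison where 0.68% of all genes tested were called. An edgeR fit of only these 2 groups also called Cryab, where it called 1190 of 14504 genes. DESeq2 also called Cryab alone of the 10 (2.28% of all genes), and limma-voom with quality weights called Cryab, Hspb8 and Hsph1 (11% of all genes). Hspb8 had the higher mean in shLINE_Orf1+LINE-1 (8.46 ± 0.74 against 5.66 ± 1.5 CPM), and Hsph1 the lower (77.7 ± 5.4 against 90.9 ± 6.8 CPM). In the same comparison the astrocyte marker Sparcl1 was also higher (355 ± 16 CPM in shLINE_Orf1+LINE-1 against 230 ± 19 CPM in shLINE_MdV_I), as 1 of 10 astrocyte markers called. Their summed level was 3710 to 3930 CPM in shLINE_Orf1+LINE-1 and 3150 to 3360 CPM in shLINE_MdV_I. The oligodendrocyte lineage factor Sox10 was lower (3.28 ± 0.33 CPM against 6.96 ± 1.5 CPM), the only one of 9 tested markers of that lineage called. The markers of that lineage summed to 3150 to 3350 CPM in shLINE_Orf1+LINE-1 and 3020 to 3300 CPM in shLINE_MdV_I, which overlap. Of the neuronal markers 0 of 6 were called by edgeR, all 6 had a fold change below 0 (median log2 fold change -0.74), and the smallest adjusted p was that of Snap25 (log2 fold change -0.67, adjusted p = 0.0505). They summed to 388 to 424 CPM in shLINE_Orf1+LINE-1 and 425 to 453 CPM in shLINE_MdV_I. Without the 2 libraries that stood apart, edgeR called 3 of 10 astrocyte, 3 of 9 oligodendrocyte lineage and 4 of 7 neuronal markers in this comparison, where it called 3.73% of all genes. The part of these cell types in the Cryab difference was not tested. The groups compared differ in the shRNA and in the added full-length LINE-1, which this comparison alone cannot tell apart. The shLINE_Orf1 group, with the same shRNA and no added LINE-1, had 60.7 ± 8.3 CPM of Cryab. Its libraries are among those that chose the gene, so no test was made.

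Scaled for transcript length, as counts per base of transcript scaled to the same total in each library, Cryab stood near the other abundant members in shControl and well above them in shLINE_Orf1. In shLINE_Orf1 its length-scaled level was 116 ± 10, and the next was Dnajb1, a J-domain partner of HSP70, with 39.4 ± 3.8. In shControl Cryab had 41.4 ± 4.5, Hsph1 43.6 ± 11, Dnajb1 39.9 ± 2.7 and Hsf1 35.8 ± 7.8. Hspa1a was lowest there at 0.611 ± 0.13.

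The Cryab counts were divided among 6 annotated transcripts, 5 of them protein coding. Cryab-205 (836 bases, 4 exons) took 48.4% ± 7.1 of them in shLINE_Orf1, 52.5% ± 3.7 in shLINE_Orf2, 46.4% ± 0.22 in shLINE_MdV_I, 50.3% ± 4.9 in shLINE_Orf1+LINE-1 and 45.9% ± 5.0 in shControl (SD, n = 3). The share did not differ detectably among the groups, since its largest difference between group means was 6.54 percentage points (p = 0.455, exact permutation test over all 1401400 ways to divide the 15 libraries into 5 groups of 3). Cryab-201 (946 bases, 3 exons) took 29.3% to 33.2% in the group means, and the transcript with a retained intron, Cryab-204, took 13.3% to 18.3%. Cryab-203 and Cryab-206 were minor, and Cryab-202 was above 0 in 1 library.

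All 3 main transcripts were higher than in shControl in each shLINE group by their means. Cryab-205 had 29.2 CPM in shLINE_Orf1, 20.2 in shLINE_Orf2, 14.7 in shLINE_MdV_I, 28.1 in shLINE_Orf1+LINE-1 and 9.06 in shControl. The mean in shLINE_Orf1 was 3.23 times that of shControl for Cryab-205, 3.0 times for Cryab-201 and 3.56 times for Cryab-204. In shLINE_Orf1+LINE-1 the ratios to shControl were 3.1, 2.68 and 2.55. These are ratios of the levels that chose the gene, so they are given without a test. The counts are estimates that divide reads among overlapping transcripts, and their error is not in the deposited table.

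**Figure D2:**
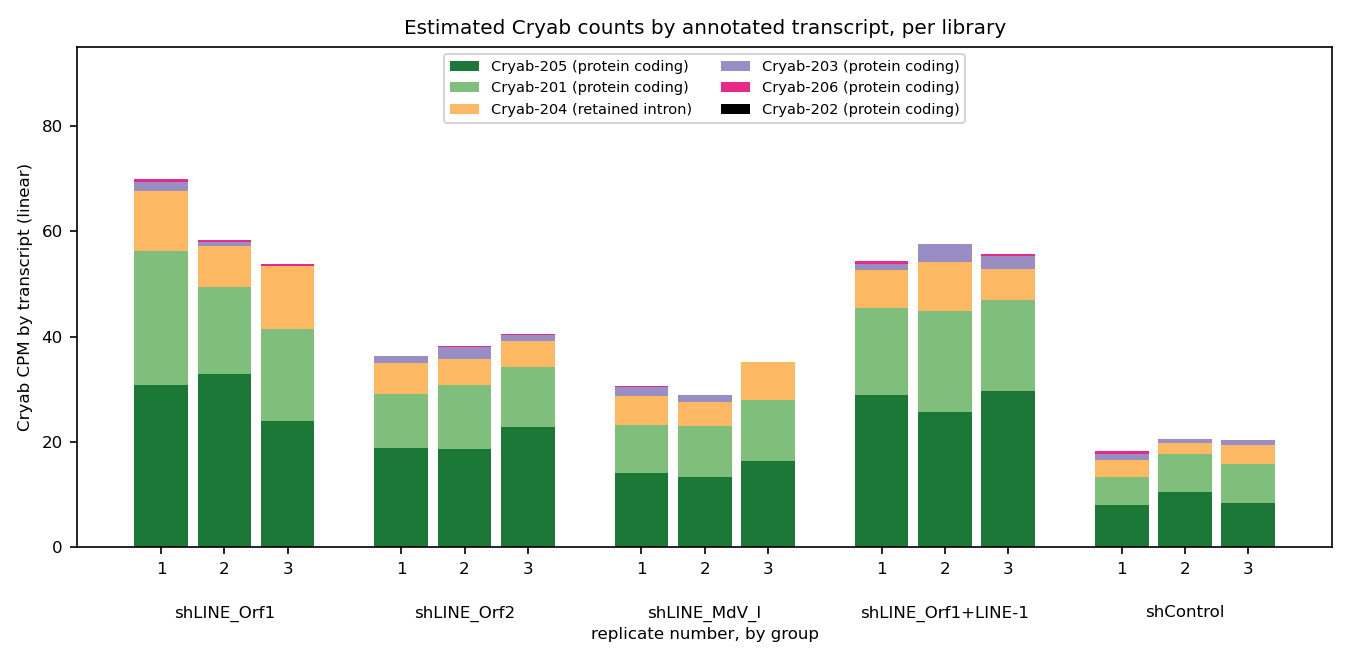
Estimated Cryab CPM (vertical axis, linear, from 0) in each of the 15 libraries, stacked by annotated transcript and ordered by group and replicate number. Cryab-205 is the lowest and thickest segment in every library, and the 12 shLINE bars at the left are all taller than the 3 shControl bars at the right.

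Hspb2, another small heat shock protein gene, lies on the opposite strand and overlaps Cryab by 1030 bases (chr9:50751078-50752354). Its exons share 252 bases with Cryab-206 and none with the other Cryab transcripts. Strand is not stated for these libraries, so reads from that stretch cannot be told apart. Hspb2 reached at most 0.526 CPM, and Cryab-206 averaged at most 1.15% of Cryab counts in any group. The other genes within 50 kb that could be tested, Dixdc1, 1110032A03Rik, Fdxacb1 and Alg9, were not called in any of the 7 pairwise comparisons, nor was Hspb2. Alg9, a mannosyltransferase of the endoplasmic reticulum, had 51.4 ± 3.3 CPM in shLINE_Orf1 and 48.7 ± 3.3 CPM in shControl.

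None of the other 9 genes passed the test in any comparison against shControl. In shLINE_Orf1 against shControl 0 of 9 were called, where 0.178% of all genes were. None had an unadjusted p under 0.05, beside 10.5% of all genes. In shLINE_Orf2 against shControl 0 of 9 were called, where 0.191% of all genes were. Again none was under 0.05 unadjusted, beside 7.0% of all genes. In shLINE_MdV_I against shControl 0 of 9 were called, where 0.594% of all genes were. Hspb8 alone was under 0.05 unadjusted, beside 8.64% of all genes. In shLINE_Orf1+LINE-1 against shControl 0 of 9 were called, where 0.139% of all genes were. None was under 0.05 unadjusted, beside 8.77% of all genes. DESeq2 called none of the 9 in these comparisons, where it called 1.42%, 1.16%, 2.02% and 1.38% of all genes. The limma-voom fit called Hspb1 in shLINE_Orf1, where it called 4.21% of all genes, and none of the 9 in the other comparisons (2.53%, 2.59% and 3.59% of all genes). Their median log2 fold changes against shControl were -0.08 in shLINE_Orf1, 0.08 in shLINE_Orf2, 0.04 in shLINE_MdV_I and 0.01 in shLINE_Orf1+LINE-1, beside medians over all genes between -0.02 and -0.01.

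**Figure D3:**
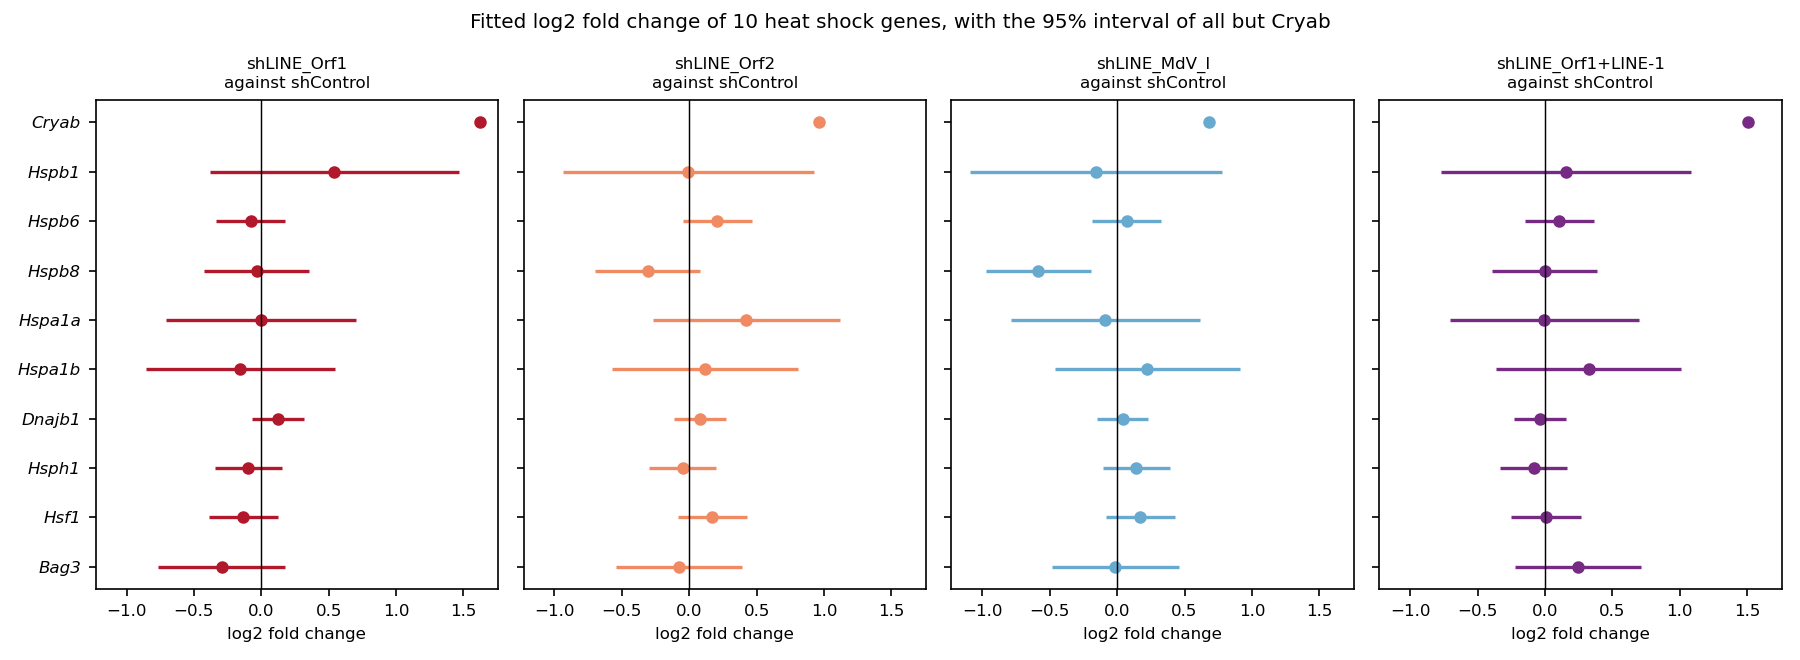
Fitted log2 fold change (points, horizontal axis) of the 10 heat shock genes in each of 4 shLINE groups against shControl, with the 95% interval (lines) of all but Cryab, which was selected on these values. The Cryab points lie between 0.68 and 1.62, and the intervals of the other 9 include 0 except for Hspb8 in shLINE_MdV_I.

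Among the small heat shock proteins, Hspb8, which works with BAG3 in the removal of misfolded proteins, had the smallest p of the 9 genes. It had 9.45, 7.84 and 7.59 CPM in shLINE_Orf1, 7.1, 6.44 and 7.02 in shLINE_Orf2, 5.93, 4.06 and 6.99 in shLINE_MdV_I, 7.65, 8.61 and 9.11 in shLINE_Orf1+LINE-1, and 7.5, 10.2 and 7.71 in shControl. Its 3 shLINE_MdV_I libraries lay below those of shControl and of shLINE_Orf1+LINE-1. The log2 fold change in shLINE_MdV_I against shControl was -0.58 ± 0.18 (95% interval -0.98 to -0.19, adjusted p = 0.255 by edgeR), and it was -0.42 without the 2 libraries that stood apart and -0.38 without the lowest library, shLINE_MdV_I replicate 2. In shLINE_Orf1+LINE-1 against shLINE_MdV_I it was 0.58 ± 0.18 (adjusted p = 0.236), and 0.38 without shLINE_MdV_I replicate 2. That difference was called without the 2 libraries that stood apart (0.58, adjusted p = 0.0489) and by limma-voom (0.74, adjusted p = 0.00212). Astrocyte markers also differed in shLINE_MdV_I against shControl, where 2 of 10 were called: Apoe, with 205 ± 38 CPM in shLINE_MdV_I against 459 ± 140 CPM in shControl, and Sparcl1, with 230 ± 19 CPM against 429 ± 44 CPM. The neuronal gene Snap25 was higher there (7.76 ± 0.12 CPM in shLINE_MdV_I against 4.37 ± 0.25 CPM in shControl), the only one of 6 tested neuronal markers called. The neuronal markers summed to 425 to 453 CPM in shLINE_MdV_I, within the 330 to 512 CPM of shControl. In that comparison edgeR called 0.594% of all genes. Apoe was highest of the shControl libraries in replicate 2 (398, 615 and 366 CPM), and without that library its log2 fold change was -0.89 in place of -1.16 and still called by edgeR (adjusted p = 0.0247), while Snap25 was not (0.85, adjusted p = 0.0524). The astrocyte markers summed to 3150 to 3360 CPM in shLINE_MdV_I and 3390 to 4070 CPM in shControl, and their part in the Hspb8 values was not tested.

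Hspb6, a small heat shock protein best known from muscle, had 13.1, 15.7 and 15.7 CPM in shLINE_Orf1, 18.3, 18.5 and 17.5 in shLINE_Orf2, 15.2, 16.5 and 17.7 in shLINE_MdV_I, 15.7, 18.1 and 16.7 in shLINE_Orf1+LINE-1, and 16.4, 13.4 and 17.2 in shControl. The shLINE_Orf2 libraries lay above those of shControl and shLINE_Orf1, with a log2 fold change of 0.21 ± 0.12 against shControl (adjusted p = 0.866), and 0.10 without the 2 libraries that stood apart. Hspb1, which encodes HSP27 in humans and HSP25 in mice, was barely detected, with 14 to 49 counts per library. It averaged 0.875 ± 0.36 CPM in shLINE_Orf1 and 0.601 ± 0.4 CPM in shControl, a log2 fold change of 0.54 with a 95% interval of -0.38 to 1.46 (adjusted p = 0.618 by edgeR). The libraries had 0.481, 1.18 and 0.965 CPM in shLINE_Orf1 and 0.451, 1.06 and 0.294 CPM in shControl, so that both libraries that stood apart, shLINE_Orf1 replicate 1 and shControl replicate 2, were the lowest and the highest of their groups. Without them the log2 fold change was 1.51 (adjusted p = 0.0919 by edgeR), without shLINE_Orf1 replicate 1 alone 0.83, and without shControl replicate 2 alone 1.23. The limma-voom fit gave 1.45 (adjusted p = 0.0298). Leaving out other single libraries of the 2 groups gave 0.22 to 0.47, so the size of any Hspb1 difference rests on single libraries.

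The inducible HSP70 genes Hspa1a and Hspa1b were also low, with 32 to 75 and 47 to 139 counts per library. They are near-identical copies: of the windows of 50 bases in the transcripts, 58.8% of those of Hspa1a and 62.3% of those of Hspa1b occur in the other. The split between them is therefore uncertain, and their sum is the firmer value. Their summed level was 2.68 ± 0.56 CPM in shLINE_Orf1, 3.38 ± 0.19 in shLINE_Orf2, 3.11 ± 1.0 in shLINE_MdV_I, 3.33 ± 1.1 in shLINE_Orf1+LINE-1 and 2.87 ± 0.76 in shControl. These groups overlapped with shControl. Their constitutive relative Hspa8, the main HSP70 of unstressed cells, had 2280 ± 220 CPM in shLINE_Orf1 and 1940 ± 65 CPM in shControl (log2 fold change 0.23 ± 0.09, adjusted p = 0.402 by edgeR, called by limma-voom). Without shLINE_Orf1 replicate 1, which had 2510 CPM, it was 0.15.

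Of the HSP70 partners, Dnajb1, the stress-induced J-domain protein HSP40, varied least among the 10 genes. It had 70.6 to 83.7 CPM in shLINE_Orf1, 71.7 to 76.7 in shLINE_Orf2, 70.8 to 73.7 in shLINE_MdV_I, 65.2 to 70.7 in shLINE_Orf1+LINE-1 and 64.2 to 74.8 in shControl. Its log2 fold change in shLINE_Orf1 against shControl was 0.12, with a 95% interval of -0.07 to 0.32, and 0.05 without shLINE_Orf1 replicate 1. Hsph1, the HSP110 nucleotide exchange factor, averaged 77.1 ± 8.7 CPM in shLINE_Orf1, 79.7 ± 2.9 in shLINE_Orf2, 90.9 ± 6.8 in shLINE_MdV_I, 77.7 ± 5.4 in shLINE_Orf1+LINE-1 and 82.5 ± 12 in shControl.

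Bag3, a nucleotide exchange factor for HSP70 that binds small heat shock proteins, had 7.47, 18.3 and 14.6 CPM in shLINE_Orf1, 14.6, 17.0 and 15.4 in shLINE_Orf2, 17.9, 16.4 and 14.7 in shLINE_MdV_I, 22.0, 18.9 and 17.7 in shLINE_Orf1+LINE-1, and 17.5, 15.4 and 16.6 in shControl. The shLINE_Orf1+LINE-1 libraries lay just above those of shControl (log2 fold change 0.25 ± 0.22, adjusted p = 0.827). Against shLINE_Orf1 they were higher by 0.54 ± 0.22 (adjusted p = 0.422), and by 0.24 without the single low library, shLINE_Orf1 replicate 1.

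Hsf1, the transcription factor of the response, had 32.2, 41.9 and 40.7 CPM in shLINE_Orf1, 48.7, 47.7 and 45.3 in shLINE_Orf2, 48.8, 50 and 43.2 in shLINE_MdV_I, 46.7, 41.8 and 37.8 in shLINE_Orf1+LINE-1, and 45.5, 36.9 and 43.4 in shControl. Against shControl its 95% interval was -0.39 to 0.13 in shLINE_Orf1 and -0.09 to 0.43 in shLINE_Orf2. HSF1 is regulated mainly as a protein, which these data do not measure. The shLINE_Orf1 replicate 1 library was the lowest of all 15 for Hsf1, Bag3, Hsph1 and Hspb6, and the highest for Cryab and Dnajb1.

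Between the shLINE groups, 0 of 9 genes were called in shLINE_Orf1+LINE-1 against shLINE_Orf1 and 0 of 9 in shLINE_Orf2 against shLINE_Orf1 with edgeR, where 0.0% of all genes were called in each. Bag3 in the first, and Hsf1 and Hspb6 in the second, had an unadjusted p under 0.05, beside 11.1% and 11.4% of all genes. DESeq2 (0.132% and 0.858% of all genes) and limma-voom (2.63% and 5.5%) called none of the 9 in either. Hsf1 was higher in shLINE_Orf2 than in shLINE_Orf1 by a log2 fold change of 0.30 ± 0.12 and Hspb6 by 0.29 ± 0.12 (adjusted p = 0.435 for both). Without shLINE_Orf1 replicate 1 these were 0.18 and 0.20. Any difference among the 5 groups was called for 0 of 9 genes by edgeR, beside 0.944% of all genes, with Hspb8 under 0.05 unadjusted (adjusted p = 0.337). DESeq2 also called 0, where it called 6.01% of all genes, and limma-voom called Hspb8, where it called 10.2%.

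Some of the 9 genes separated groups without overlap, beside the share of all genes that did so. None of the 9 separated shLINE_Orf1 from shControl, where 9.26% of all genes did. Hspb6, Hspa1a and Hspb8 separated shLINE_Orf2 from shControl, where 12% of all genes did. Hspb8 separated shLINE_MdV_I from shControl (14.9% of all genes), and Bag3 separated shLINE_Orf1+LINE-1 from shControl (16.8%). Hspb6 separated shLINE_Orf1+LINE-1 from shLINE_Orf1 (17.4%). Hsf1, Hspb6, Hspa1b and Hspb8 separated shLINE_Orf2 from shLINE_Orf1 (14.2%), and Hspb8 and Dnajb1 separated shLINE_Orf1+LINE-1 from shLINE_MdV_I (27.2%).

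The wider chaperone system was examined through 9 lists of 93 other genes, of which 86 could be tested. They cover other small heat shock proteins, HSP70 and HSP110, J proteins, BAG and HSP70 cochaperones, HSP90 and its cochaperones, the TRiC chaperonin, mitochondrial and endoplasmic reticulum chaperones, and other heat shock factors and regulators. With edgeR, 0 of 86 rose and 0 of 86 fell in each of the 7 pairwise comparisons. At an unadjusted p under 0.05 there were 4 in shLINE_Orf1, 3 in shLINE_Orf2, 7 in shLINE_MdV_I and 10 in shLINE_Orf1+LINE-1 against shControl, beside 10.5%, 7.0%, 8.64% and 8.77% of all genes. Between shLINE groups there were 6 in shLINE_Orf1+LINE-1 and 7 in shLINE_Orf2 against shLINE_Orf1, and 8 in shLINE_Orf1+LINE-1 against shLINE_MdV_I, beside 11.1%, 11.4% and 8.49% of all genes. Against shControl, DESeq2 called 0, 1, 3 and 2 of the 86 in the 4 shLINE groups, and limma-voom called 2, 0, 2 and 1, while they called 1.16% to 2.02% and 2.53% to 4.21% of all genes. Between shLINE groups DESeq2 called none of the 86, beside 0.132%, 0.858% and 2.28% of all genes. There limma-voom called 1, 1 and 8 of the 86, beside 2.63%, 5.5% and 11% of all genes. For any difference among the 5 groups, DESeq2 called 5 and limma-voom 4, beside 6.01% and 10.2% of all genes.

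The genes of these lists that follow are named because of their calls, after their values were seen, and not every called gene is named. Against shControl, DESeq2 but not limma-voom called Trap1 higher in shLINE_Orf2 and shLINE_MdV_I (1.16% and 2.02% of all genes). It also called Dnajc21 lower in shLINE_Orf1+LINE-1 (1.38%). The limma-voom fit but not DESeq2 called Hspa8 and Dnaja4 higher in shLINE_Orf1 (4.21%). Against shControl, DESeq2 and limma-voom both called Canx lower and Unc45a higher in shLINE_MdV_I, and Unc45a higher in shLINE_Orf1+LINE-1. Without the 2 libraries that stood apart, edgeR made these same calls, where it called 2.53% and 2.3% of all genes. In that fit edgeR also called Dnajb9 higher and Pdia6 lower in shLINE_Orf1+LINE-1 against shLINE_MdV_I, beside 575 of all 15404 genes. For any difference among groups it called Dnajb9 and Canx, beside 928 of all 15404 genes. Without shLINE_Orf1 replicate 1 alone it called Dnajb9, Canx and Unc45a in shLINE_MdV_I (1.64% of all genes) and Unc45a in shLINE_Orf1+LINE-1 (1.11%) against shControl. With the last number of the library description as a covariate it called Dnajb9 in shLINE_MdV_I against shControl (1.1%) and for any difference among groups (1.89%). A fit of only shLINE_Orf1+LINE-1 and shLINE_MdV_I called 8 of the 86, beside 8.2% of all genes. Canx, the calnexin of the endoplasmic reticulum, had 606 ± 22 CPM in shLINE_MdV_I and 823 ± 110 CPM in shControl (log2 fold change -0.44 ± 0.10, adjusted p = 0.07 by edgeR). The median log2 fold change of the 86 against shControl was 0.02, -0.03, -0.01 and -0.02 in the 4 shLINE groups.

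**Figure D4:**
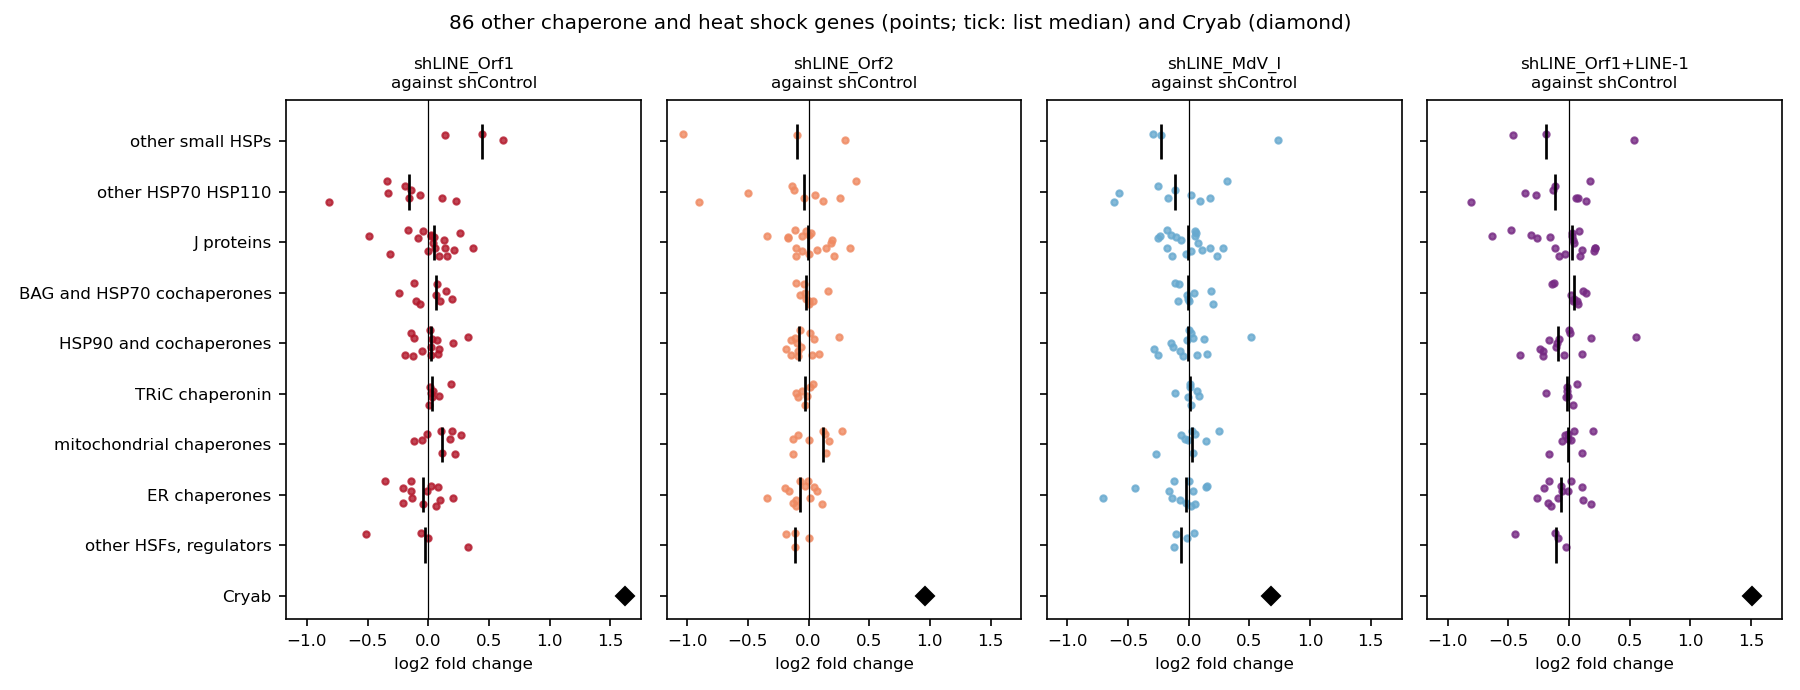
Log2 fold change of each of 86 other chaperone and heat shock genes (points, horizontal axis) by list, with the list median as a tick and Cryab as a diamond at the bottom, in the 4 shLINE groups against shControl. The medians of the large lists lie close to 0, and the Cryab diamond lies to the right of every point except for Hspb3 in shLINE_MdV_I.

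Among the most abundant genes of these lists, Hsp90ab1, the constitutive cytosolic HSP90, averaged 1480 ± 170 CPM in shLINE_Orf1, 1650 ± 78 in shLINE_Orf2, 1660 ± 24 in shLINE_MdV_I, 1650 ± 24 in shLINE_Orf1+LINE-1 and 1630 ± 150 in shControl. Hspd1, the mitochondrial chaperonin HSP60, averaged 749 ± 32 CPM in shLINE_Orf1 and 756 ± 30 CPM in shControl. Dnaja1 averaged 443 ± 74 CPM in shLINE_Orf1 and 427 ± 46 CPM in shControl. Cct7, a TRiC subunit, averaged 732 ± 93 CPM in shLINE_Orf1 and 712 ± 76 CPM in shControl.

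Over the 15 libraries, the genes whose log2 CPM was most like that of Cryab were not among the chaperones listed. Over 9569 genes of moderate or high level (log2 CPM averaging 3 or more), Pearson's r was highest for Lamp1 (0.975), a lysosomal membrane protein, Asf1b (0.922), a histone chaperone, Osbpl1a (0.919), Gatm (0.918), an enzyme of creatine synthesis, and Rab3b (0.915), a vesicle GTPase. Lamp1 averaged 666 CPM in shLINE_Orf1, 599 in shLINE_Orf2, 554 in shLINE_MdV_I, 663 in shLINE_Orf1+LINE-1 and 475 in shControl, the same order as Cryab. The most opposite were Neto1 (-0.909), Naa16 (-0.865) and Cpne1 (-0.855). The other 9 heat shock genes had r with Cryab between -0.429 (Hsph1) and 0.372 (Hspb1). The 15 points share libraries and groups, so these are descriptions picked from many genes.

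The authors' deposited table of a mixed model for a young LINE-1 effect gives for Cryab a t score of -0.641 (p = 0.567). In the authors' deposited table the smallest p of the 10 genes is that of Bag3 (t score 2.32, p = 0.0374), and the adjusted p is 1 for all 17921 genes. The samples behind the authors' deposited table and the direction of its group term are not stated in the labels or headers.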

How the data were processed

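RNA of 15 sorted neural progenitor libraries was measured, and groups and replicate numbers were taken from sample titles. The deposited table holds an expected count per transcript and library, made by the authors with cutadapt, RSEM and mm10, per the submitters' processing notes, which give no role or order; versions and annotation were not given in the labels or notes. A second deposited table holds the authors' own mixed model, with an estimate and t score and a p-value per gene, per the file headers. Of 111462 transcripts, 110203 had a gene in GENCODE M21 (GRCm38, the build mm10 names). The rest, 0.583% to 0.637% of counts, were left out of library sizes. Counts were summed per gene and rounded to whole numbers.

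Genes were filtered with filterByExpr (minimum count 10), scaled by TMM and fitted in 1 model of 5 groups with edgeR 4.0.16 (quasi-likelihood, robust). P-values were adjusted by Benjamini-Hochberg over all 15147 genes, and a gene was called under 0.05. Biological variation was 0.158 (common coefficient). The fit was tested on simulated data. R 4.3.3, limma 3.58.1, DESeq2 1.42.0, Python 3.11.15, pandas 2.3.3, numpy 2.4.6, scipy 1.17.1 and matplotlib 3.10.9 were used. No label says that replicates came from separate cultures, so the p-values reflect variation between libraries that could be technical.

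The members and lists were chosen with earlier results of these data known. All 10 members are named. Of a wider list, called genes and the most abundant gene were eligible, and 5 like and 3 opposite genes by Pearson's r. Unc45a, Dnajb9, Pdia6, Trap1, Dnajc21 and Dnaja4 were named after their values were seen. The alternatives were RLE or no scaling, no filter, at least 50 counts in 3 libraries, DESeq2, limma-voom (quality weights), fits to just the groups compared, a replicate block, the final number in each description (1 or 12) as a covariate, Hspa1a and Hspa1b as 1 gene, protein-coding transcripts only, 2 libraries that stand apart left out, and each library left out in turn. The final number was 12 only in shLINE_Orf1 replicate 1 and shLINE_MdV_I replicates 2 and 3, so it is partly confounded with group.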

Additional observations from a re-analysis of the deposited data

Results flagged for a closer look

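The level of Cryab differed between 2 shLINE groups. Cryab was higher in shLINE_Orf1+LINE-1 than in shLINE_MdV_I by a log2 fold change of 0.82 (SE 0.11, adjusted p = 0.00324, edgeR), and was higher in 3 of 3 libraries than in any of the 3 of shLINE_MdV_I. It is picked out because the contrast tests directly whether these groups differ. Its value is given here with no explanation.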

How the results depend on the processing

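Cryab in shLINE_Orf1+LINE-1 against shLINE_MdV_I kept its call in all 27 alternatives, with log2 fold changes of 0.76 to 0.95 and adjusted p of 4.78e-09 to 0.039. Its values against shControl kept their direction, at 1.45 to 1.70 in shLINE_Orf1, 0.92 to 1.01 in shLINE_Orf2, 0.55 to 0.76 in shLINE_MdV_I and 1.46 to 1.54 in shLINE_Orf1+LINE-1. Between shLINE_Orf1+LINE-1 and shLINE_Orf1 it ran from -0.20 to 0.03. The count of members called was 0, or 1 with Cryab in shLINE_Orf1+LINE-1 against shLINE_MdV_I, except in 4 cases. With limma-voom it was 1 in shLINE_Orf1 against shControl (Hspb1, log2 fold change 1.45, adjusted p = 0.0298) and 1 for any difference among groups (Hspb8, adjusted p = 0.0357). It was 3 with limma-voom in shLINE_Orf1+LINE-1 against shLINE_MdV_I (Cryab and Hspb8, with higher means in shLINE_Orf1+LINE-1, and Hsph1, with a lower mean). Without the 2 libraries that stood apart it was 2 in shLINE_Orf1+LINE-1 against shLINE_MdV_I (Cryab and Hspb8). The cause was not tested. No member count changed when 1 library was left out, and the Cryab-205 share difference was then 4.56 to 9.32 percentage points. The count of all genes called moved more. Over alternatives with all libraries kept or both doubtful ones removed it ran from 1 to 638 in shLINE_Orf1 (27 in the fit reported), 4 to 383 in shLINE_Orf2 (29), 28 to 393 in shLINE_MdV_I (90) and 2 to 544 in shLINE_Orf1+LINE-1 (21) against shControl. It ran from 0 to 399 (0) in shLINE_Orf1+LINE-1 and 0 to 833 (0) in shLINE_Orf2 against shLINE_Orf1, 69 to 1665 (103) in shLINE_Orf1+LINE-1 against shLINE_MdV_I, and 56 to 1548 (143) for any difference. The largest counts were those of limma-voom. With 1 library left out they ran from 5 to 40, 3 to 119, 22 to 254, 2 to 171, 0 to 1, 0 to 14, 20 to 303 and 23 to 380 in the same order. With a replicate block, Cryab in shLINE_Orf1+LINE-1 against shLINE_MdV_I was 0.83 (adjusted p = 0.0123), no member count changed, and the genes called were 4, 4, 55, 2, 0, 0, 69 and 56. Deviations of the 30 same-numbered pairs correlated at -0.271 to 0.180, 3 of them over 0.1, and 4 of 15 libraries correlated best with their own number. These values show no clear pairing by number. With 3 libraries per group they cannot exclude it. The low counts of Hspb1, Hspa1a and Hspa1b limit what can be seen for them.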
